A study of Saccharomyces cerevisiae with 19 samples.

Results

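The difference in RNA level between a yeast strain labelled as a Sch9 mutant and its wild type was taken at 24 h of culture, as the mutant array minus the wild type array, and set against the same difference at the other 8 times at which both strains were measured. It rests on 2 of the 19 arrays of the series. The other 8 shared times supplied 16 arrays, and the remaining array, of the wild type at 120 h, has no partner because the authors set aside the mutant array of that time after a quality check. Each value is the level of a gene, 5449 genes in all, on a log2 scale, so that a difference of 1 is 2-fold.

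Both groups were budding yeast (Saccharomyces cerevisiae) from frozen stocks, grown overnight to saturation in SDC (a synthetic complete medium), diluted and kept at 30 °C with shaking, with no treatment. The labels name the groups Wild Type and Sch9 Mutant, and the design text describes the mutant as a deletion of SCH9 with a long life span. The sources used here do not give the strain background, the mating type, the marker of the deletion or the number of clones. Total RNA was taken by the acid phenol method every 12 h from 12 h, labelled with biotin and hybridised to Affymetrix Yeast 2.0 arrays, 1 array per strain and time. The 24 h difference therefore has no replicate check, and a comparison of 24 h with the other times measures the spread of the difference over times, not over cultures.

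Sch9 is a protein kinase that acts downstream of the TOR complex and promotes ribosome production and growth while nutrients last. When glucose runs out, yeast passes the diauxic shift: genes for the use of ethanol, acetate and other carbon compounds without glucose are released from repression, respiration is built up, and stress genes under the factors Msn2, Msn4 and Gis1 are raised. The question at 24 h is where the strains differed in that programme, and which of these differences were not there, or not of that size, at the earlier and later times.

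SCH9 (YHR205W) had a level of 10.86 in the wild type and 10.08 in the mutant at 24 h, a difference of -0.77. Its differences at the other 8 times ran from -1.19 to 0.16 with a median of -0.48, so 24 h lay within their range. The probe set still gave signal in the mutant, and whether it lies inside the deleted part is not known here, so it does not check the label. URA3 (YEL021W), a uracil synthesis gene widely used as a deletion marker, stood at 7.66 in the wild type and 10.19 in the mutant at 24 h, a difference of 2.54 against 1.38 to 1.93 at the other times. The departure of 0.86 did not pass the test described below (adjusted p = 0.0864), although it did with 12 h left out (0.82, adjusted p = 0.0362).

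The mutant array of 24 h stood apart in its ribosomal RNA signal. On the deposited scale all 17 control probe sets for ribosomal RNA were lower in it than in any of the other 18 arrays. Their median was 7.54 there, against 9.66 in the wild type at 24 h, 8.84 to 9.76 in the other mutant arrays and 9.52 to 13.66 in the wild type arrays. The mean difference between the 3′ and 5′ probe sets of 10 control transcripts was 1.06 in the mutant and 0.82 in the wild type at 24 h. It was 0.73 to 0.95 in the other mutant arrays and 0.80 to 1.44 in the wild type arrays. These controls were taken by probe set name, without a check that all are yeast transcripts. Their mean may therefore not measure the integrity of the yeast RNA. Every 24 h value below uses this array, and the part of these signals in the results was not tested. Among markers of other cell states, none of the 11 mating type markers passed, with a list median of 0.22 at 24 h and -0.40 to 0.14 at the other times, nor did any of the 12 haploid markers (median 0.29, against -0.40 to 0.20) or the 33 meiosis and sporulation markers (median 0.09, against -0.24 to 0.01). With 12 h left out, 3 of the 11 mating type, 3 of the 12 haploid and 6 of the 33 meiosis and sporulation markers passed upward. Of all genes 7.43% did so in that fit. The 24 h difference lay above all other 8 in 19 of the 33 meiosis and sporulation markers, against 19.5% of all genes. Of these 33, 2 (6.06%, against 4.26% of all genes) were at least 2-fold higher in the mutant at 24 h and none lower. The largest of their differences, 4.27, was that of SPS100 (below). The part of the markers in the results was not tested. In bulk RNA of a culture, fewer cells of a kind and less RNA per cell cannot be told apart.

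At 24 h, 232 genes (4.26% of those measured) were at least 2-fold higher in the mutant and 254 (4.66%) at least 2-fold lower. At 12 h the counts were 42 and 165, and from 36 to 108 h they ran from 145 to 305 higher and from 297 to 371 lower. The share of higher genes among those past 2-fold at 24 h was 47.7%, or 28.6% in the deposited values (171 higher and 427 lower). Of the genes past 2-fold at 24 h, 134 of the higher and 107 of the lower were also past 2-fold in the same direction at 36 h. In contrast, 83 of the higher and 116 of the lower were past 2-fold in that direction at 24 h and at none of the other 8 times. As a description across genes, which are not independent and here share a scaling, the 24 h differences correlated with those at 36 h at r = 0.66, with those at 12 h at r = 0.07 and with those at 108 h at r = 0.32.

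**Figure D1:**
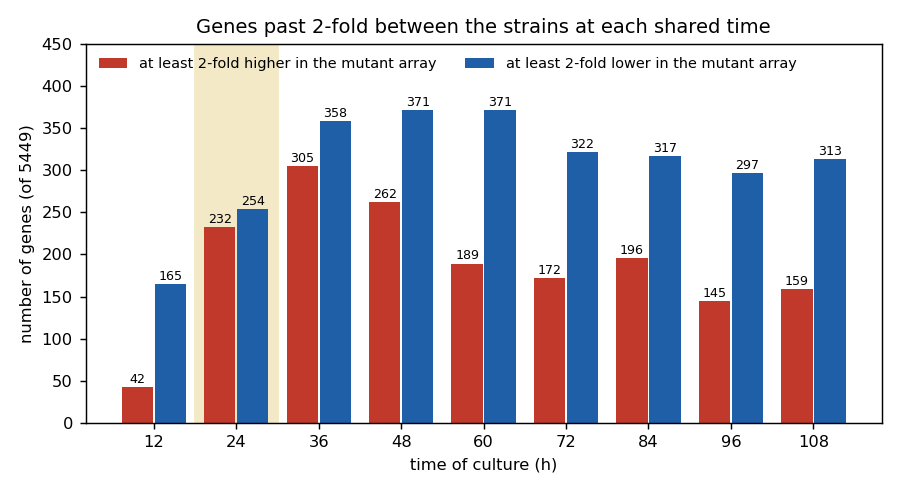
Number of genes, of 5449, at least 2-fold higher (red) or lower (blue) in the mutant array than in the wild type array at each shared time, 1 array per strain and time, with 24 h shaded. The 24 h bars stand at 232 and 254, between the 42 and 165 of 12 h and the 305 and 358 of 36 h.

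To find what set 24 h apart, the difference at 24 h minus the mean of the other 8, called the departure here, was tested for every gene with limma on the 9 time-matched differences, with Benjamini-Hochberg adjustment over all 5449 genes and a threshold of 0.05 on the adjusted p. The test assumes that the lone 24 h pair varies like the other times. Counts of passing genes per list below are to be read against the shares of all genes given next. Counts past 2-fold per list are to be read against the 4.26% of all genes higher and 4.66% lower at 24 h. Counts above or below 0 are to be read against the median 24 h difference of all genes, 0.02. A single passing gene gives no result about its list. The departure was upward in 73 genes (1.34%) and downward in 113 (2.07%), 186 in all, of which 10 are read by probe sets shared between genes. The counts and their balance moved with the scaling: median centring gave 379 upward and 104 downward, and the deposited values 144 and 619. Of the 186, 26 were also at least 2-fold higher at 24 h and 61 at least 2-fold lower. A plain count without the test gave 1064 genes (19.5%) whose 24 h difference lay above all other 8 and 1185 (21.7%) below all other 8, and 12 h stood apart in more genes than 24 h did, with 1302 above and 1368 below. With the 12 h pair left out, 405 genes (7.43%) passed upward and 385 (7.07%) downward, among them all 186 with the same sign; with 72 h left out 71 genes passed in all and with the times from 12 to 72 h alone 6 did.

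**Figure D2:**
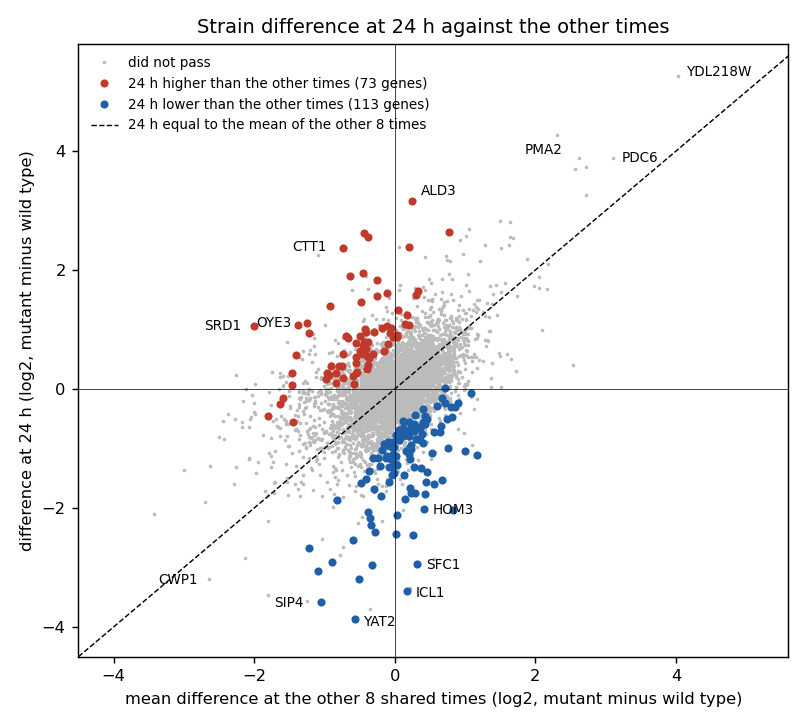
Difference at 24 h (vertical axis, log2, mutant minus wild type) against the mean difference at the other 8 shared times (horizontal axis, same scale), 1 point per gene; red and blue points passed the limma test upward (73 genes) and downward (113 genes), and the dashed line marks equal values. ICL1, YAT2 and SFC1 lie near 0 or little below it on the horizontal axis and far below 0 at 24 h, while YDL218W, PDC6 and CWP1, large at 24 h, lie near the line.

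Which array of the 24 h pair moved was then read from each strain's own course. In 133 of the 186 genes the mutant array departed further from its own other times than the wild type array did from its own. The mutant level at 24 h was the lowest of its 9 in 82 of the 113 genes that passed downward (72.6%, against 18.7% of all genes), and the wild type level the highest of its 9 in 62 (54.9%, against 16% of all genes). Among the 73 that passed upward, the mutant level was the highest of its 9 in 57 (78.1%, against 22.6% of all genes) and the wild type level the lowest of its 9 in 31 (42.5%, against 13.3%). The choice of these genes favours such positions, and also opposed changes of the strains into and out of 24 h. The shares above and the median changes below are thus a description, and do not test which array moved. From 12 to 24 h and from 24 to 36 h, all genes had a median change of -0.02 (wild type) and -0.03 (mutant). Between 12 and 24 h the 113 genes had a median change of 0.42 in the wild type and -0.69 in the mutant, and between 24 and 36 h one of -0.33 and 0.66. The 73 had a median change of 0.02 in the wild type and 1.38 in the mutant up to 24 h, and of 0.37 and -0.64 from 24 to 36 h. Tested alone with limma, the wild type array of 24 h passed against its own other times in 0 genes (556, or 10.2%, had an unadjusted p under 0.05) and the mutant array in 1, HOM3 (717, or 13.2%, unadjusted); with 12 h left out 508 and 790 passed.

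Of the 45 lists, that of the glyoxylate cycle and gluconeogenesis, which lets cells build sugar from acetate, had the lowest median at 24 h. In it, 12 of 26 genes (46.2%, against 4.66% of all genes) were at least 2-fold lower in the mutant at 24 h and none higher. The list median was -0.96 at 24 h and between -0.37 and 0.30 at the other times. The departure passed downward in 7 of the 26, upward in none, and its median over the list was -1.10, against -0.02 over all genes. From 12 to 24 h the list gained a median of 3.67 in the wild type and 2.30 in the mutant, and from 24 to 36 h a median of 0.05 in the wild type and 0.86 in the mutant.

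ICL1 (YER065C), isocitrate lyase, the enzyme that opens the glyoxylate cycle, had the most negative departure among the genes that passed. Its level at 24 h was 13.36 in the wild type and 9.96 in the mutant, a 10.5-fold difference. At 12 h both strains were low, at 8.61 and 8.49, and from 36 to 108 h the wild type lay between 12.57 and 13.13 and the mutant between 12.89 and 13.33. The strains thus met before and after 24 h, with differences from -0.12 to 0.37 (median 0.22) at the other times. The departure was -3.57 ± 0.20 (SE from the fit over 9 times, adjusted p = 3.01e-05).

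YAT2 (YER024W), a carnitine acetyltransferase that moves acetyl groups between compartments, had the largest 24 h difference on the lower side. It stood at 13.50 in the wild type and 9.64 in the mutant at 24 h, a difference of -3.86, with -0.77 to -0.31 (median -0.60) at the other times. The mutant was lower in all 9 arrays, and at 24 h by far more than elsewhere (departure -3.30 ± 0.21, adjusted p = 4.82e-05). SFC1 (YJR095W), the mitochondrial carrier that exchanges succinate for fumarate, stood at 13.30 and 10.36 at 24 h, and its other differences ran from -0.37 to 0.98 with a median of 0.40. The sign was thus turned at 24 h (departure -3.25 ± 0.40, adjusted p = 0.00414). SIP4 (YJL089W), an activator of gluconeogenic genes, stood at 12.51 and 8.93 at 24 h, a difference of -3.57, against -1.36 to 0.05 (median -1.18). It was lower in the mutant later too, by less (departure -2.52 ± 0.43, adjusted p = 0.0155).

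The other 3 genes of the list that passed, named after their values were seen, were FBP1 (fructose bisphosphatase), JEN1 (the lactate and pyruvate permease) and PCK1 (phosphoenolpyruvate carboxykinase). FBP1 stood at 12.88 in the wild type and 10.34 in the mutant at 24 h, with other differences from -1.12 to -0.12 (median -0.63; departure -1.94, adjusted p = 0.0166). JEN1 stood at 12.94 and 11.90, against -0.21 to 0.40 (median 0.24; departure -1.21, adjusted p = 0.0261). PCK1 stood at 13.35 and 12.16, against -0.37 to 0.26 (median -0.08; departure -1.13, adjusted p = 0.0404). Under median centring all 3 calls were lost, PCK1 with a change of sign (0.10), and all 3 were lost in the deposited values too. The JEN1 call was also lost without 60, 72 or 84 h (adjusted p up to 0.059) and the PCK1 call without any of the times from 48 to 108 h (up to 0.0807). ADY2 (YCR010C), the acetate transporter, shows the other pattern: it stood at 11.41 and 7.96 at 24 h, a difference of -3.46, but remained lower later, with other differences from -2.68 to 0.49 and a median of -2.11, and did not pass (departure -1.65, adjusted p = 0.326).

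Some related genes outside this list also passed downward, with courses that differed in part. AGP2 (YBR132C), a plasma membrane protein needed for carnitine uptake, stood at 11.97 in the wild type and 8.78 in the mutant at 24 h, with other differences from -0.98 to -0.12 (median -0.43; departure -2.69 ± 0.31, adjusted p = 0.0033). CIT3 (YPR001W), a mitochondrial citrate and methylcitrate synthase, stood at 10.92 and 8.86, against -0.70 to 0.01 (median -0.39; departure -1.68 ± 0.25, adjusted p = 0.0117). Up to 24 h AGP2 had gone from 9.35 to 11.97 in the wild type and from 8.97 to 8.78 in the mutant. CIT3 had gone from 7.88 to 10.92 in the wild type and from 7.89 to 8.86 in the mutant. STL1 (YDR536W), the glycerol and proton symporter, stood at 10.25 and 8.21, and its other differences of -0.06 to 1.85 (median 0.69) had the mutant higher at every time from 36 h on (departure -2.86 ± 0.53, adjusted p = 0.0207). DLD3 (YEL071W), a cytosolic D-lactate dehydrogenase, stood at 12.61 and 9.55, and was lower in the mutant at every time, with differences of -1.56 to -0.74 elsewhere (departure -1.97 ± 0.29, adjusted p = 0.0103). These 4 calls, and those of ICL1, YAT2, SFC1 and SIP4, held with each time left out in turn and under all 3 other scalings. Related lists lay on both sides of 0 at 24 h. The median was 0.22 for 39 genes of fatty acid oxidation and peroxisomes, against -0.05 to 0.15 at the other times. It was -0.30 for 41 respiratory chain and ATP synthase genes (-0.64 to 0.08) and -0.27 for 13 tricarboxylic acid cycle genes (-0.07 to 0.41). The sign of the median departure turned with the scaling in each of these lists.

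**Figure D3:**
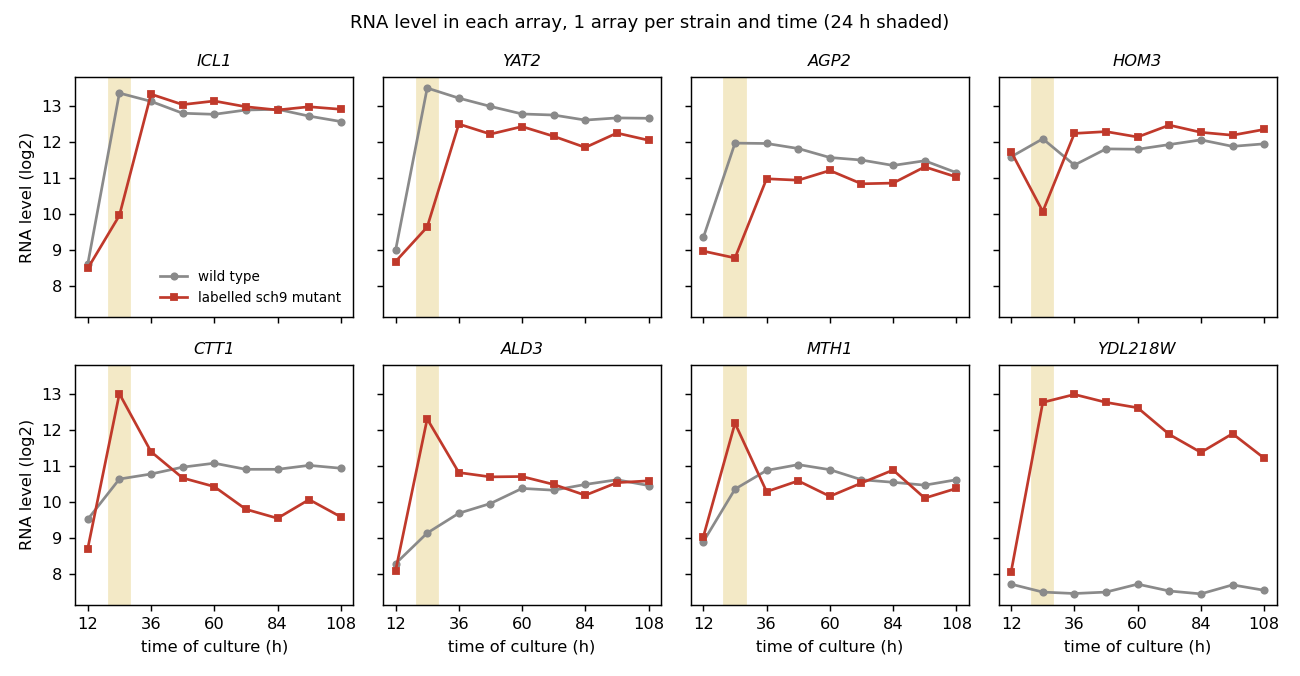
RNA level (log2) of 8 genes in each array of the wild type (grey) and the labelled sch9 mutant (red) over the 9 shared times (horizontal axis, h), with 24 h shaded. ICL1, YAT2 and AGP2 are up at 24 h in the wild type and by 36 h in the mutant, HOM3 dips in the mutant at 24 h, CTT1, ALD3 and MTH1 peak in the mutant at 24 h, and YDL218W stays high in the mutant from 24 h on.

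Genes of amino acid synthesis formed the other large group on the lower side. Over 7 lists with 113 genes, 30 genes (26.5%, against 4.66% of all genes) were at least 2-fold lower in the mutant at 24 h and none higher. Of the 113, 104 lay below 0. The median was -0.72 at 24 h and between -0.10 and 0.04 at each of the other 8 times, where members lay on both sides of 0. The departure passed downward in 19 genes and upward in 1, with a median of -0.62. Between 24 and 36 h the median of these genes changed by 0.53 in the mutant and by -0.18 in the wild type.

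By pathway, sulphur amino acid synthesis (35 genes, median -0.80 at 24 h) had 5 genes passing downward, the aromatic amino acids (12 genes, median -0.69) had 5, arginine (8 genes, median -0.90) had 4, serine, glycine, threonine, proline and glutamate (28 genes, median -0.67) had 3, and histidine (7 genes, median -0.72) had 2. None of these 5 lists had a gene passing upward. The branched-chain amino acids (13 genes, median -0.75, against -0.02 to 0.55 at the other times) had no gene past 2-fold and none passing. With 12 h left out, however, 9 passed downward, against 7.07% of all genes. Lysine was the exception, with a median of -0.33 at 24 h inside the range of the other times (-0.73 to -0.16) and 1 gene of 10 passing, upward.

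HOM3 (YER052C), the aspartate kinase that starts the path to threonine and methionine, showed the pattern most plainly. It stood at 12.09 in the wild type and 10.07 in the mutant at 24 h, a 4.04-fold difference. The mutant was higher at all other times, by 0.13 to 0.88 (median 0.37), and its own levels there lay between 11.73 and 12.47. The departure was -2.43 ± 0.25 (adjusted p = 0.00254), and the mutant array alone departed from its own other times by -2.14. MET2 (YNL277W), homoserine acetyltransferase, stood at 11.71 and 9.60, against -0.56 to 0.47 (median 0.16) at the other times, and passed (departure -2.15 ± 0.36, adjusted p = 0.0139). SAM1 (YLR180W), an S-adenosylmethionine synthetase, stood at 12.56 and 10.12, against -0.64 to 0.94 (median 0.17), and passed (departure -2.46 ± 0.48, adjusted p = 0.0264). MET13 (YGL125W), methylenetetrahydrofolate reductase, named after its values were seen, stood at 11.67 and 10.11, against -0.45 to 0.21 (departure -1.47 ± 0.26, adjusted p = 0.0165). SUL2 (YLR092W), a sulphate permease, stood at 11.28 and 8.62 but varied from -2.15 to -0.08 at the other times, and did not pass (departure -1.93, adjusted p = 0.118). The MET2 call was lost with median centring (adjusted p = 0.0526). In the deposited values and there, those of SAM1 and MET13 were lost, and that of SAM1 also without 72, 84, 96 or 108 h (adjusted p 0.0535 to 0.0577).

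Among the aromatic amino acid genes, TRP4 (YDR354W), a transferase of tryptophan synthesis, stood at 10.84 in the wild type and 9.08 in the mutant at 24 h, whereas the mutant was higher by 0.14 to 0.72 at every other time (departure -2.18 ± 0.25, adjusted p = 0.00355). ARO1 (YDR127W), the multifunctional enzyme on the way to chorismate, stood at 12.66 and 11.54, against -0.23 to 0.03 (departure -1.01, adjusted p = 0.0123). ARO4 (YBR249C), which starts the aromatic pathway, stood at 11.15 and 10.43 (departure -1.27, adjusted p = 0.0499), and TRP3 (YKL211C), a later enzyme of tryptophan synthesis, at 10.18 and 9.02 (departure -0.86, adjusted p = 0.0444). Of these, TRP4 held under every scaling and with each time left out. The ARO1 and ARO4 calls were lost with median centring, that of ARO1 also in the deposited values, and those of ARO4 and TRP3 without any single time from 48 to 108 h (adjusted p up to 0.0949 and 0.0932).

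In arginine synthesis, ARG3 (YJL088W), ornithine carbamoyltransferase, stood at 11.63 in the wild type and 8.96 in the mutant at 24 h, and was lower in the mutant at the other times too, from -1.56 to -0.59 (departure -1.45, adjusted p = 0.0464). ARG7 (YMR062C), of ornithine synthesis in mitochondria, stood at 11.32 and 10.37 (departure -1.17, adjusted p = 0.0261), and ARG2 (YJL071W), acetylglutamate synthase, at 9.94 and 9.09 (departure -0.91, adjusted p = 0.0163). CPA1 (YOR303W), a subunit of carbamoyl phosphate synthetase, stood at 13.36 and 12.58 (departure -1.0, adjusted p = 0.0163), but had the opposite sign with median centring (0.22). HIS1 (YER055C), which starts histidine synthesis, stood at 10.82 and 10.09 at 24 h, where at every other time the mutant was higher, by 0.30 to 0.82 (departure -1.36 ± 0.21, adjusted p = 0.0117). HIS6 (YIL020C), of the same pathway, stood at 9.28 and 8.49 (departure -0.91, adjusted p = 0.0472). Without any single time from 48 to 108 h ARG3 and HIS6 no longer passed (adjusted p up to 0.0854 and 0.0949), nor did ARG7 without 60, 72 or 84 h (up to 0.0577). With median centring ARG3 (adjusted p = 0.146) and ARG7 (adjusted p = 0.0501) did not pass, nor did ARG3 with cyclic loess (adjusted p = 0.0718), nor CPA1 in the deposited values (adjusted p = 0.646).

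GLY1 (YEL046C), threonine aldolase, stood at 12.28 in the wild type and 11.09 in the mutant at 24 h, against -0.06 to 0.59 at the other times (departure -1.40 ± 0.24, adjusted p = 0.0155). SER1 (YOR184W), phosphoserine aminotransferase, stood at 12.02 and 10.71 (departure -1.23, adjusted p = 0.0294), and PRO1 (YDR300C), which starts proline synthesis, at 9.97 and 9.21 (departure -0.95, adjusted p = 0.0321). GDH1 (YOR375C), the glutamate dehydrogenase that assimilates ammonium, stood at 12.70 and 10.67 but had a difference of -1.52 at 12 h, and did not pass (departure -2.15, adjusted p = 0.103). LYS4 (YDR234W), homoaconitase of lysine synthesis, went the other way: 10.26 and 10.53 at 24 h, against -1.16 to -0.48 at all other times (departure 1.10, adjusted p = 0.0349). The GLY1 and SER1 calls were lost with median centring, and those of GLY1, SER1 and LYS4 in the deposited values. Leaving out a single time ended the calls of SER1 (60, 72, 84, 96 or 108 h, adjusted p up to 0.0599), PRO1 (48, 72, 84, 96 or 108 h, up to 0.0693) and LYS4 (48, 72, 96 or 108 h, up to 0.0762).

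Amino acid permeases were lower as well, 5 of 20 by at least 2-fold and none higher, with a list median of -0.64 at 24 h and -0.47 to 0.15 at the other times. The departure passed downward in 2, AGP2 (above) and MMP1 (YLL061W), the S-methylmethionine permease. MMP1 stood at 11.06 in the wild type and 8.10 in the mutant at 24 h, where at 12 h they had stood at 7.80 and 8.22. Its other differences ran from -1.03 to 0.42 (departure -2.63 ± 0.46, adjusted p = 0.0171). DIP5 (YPL265W), the permease for aspartate and glutamate, stood at 12.97 in the wild type and 9.27 in the mutant at 24 h, a difference of -3.70. It was also low in the mutant at 12 h (difference -2.73) and level or higher in the mutant at some later times (up to 0.56), so that its departure of -3.35 ± 0.94 did not pass (adjusted p = 0.0846).

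Of the lists for protein synthesis, that of the mitochondrial ribosome was lower in the mutant and that of the cytosolic ribosome higher. The mitochondrial ribosomal protein genes had a median of -0.74 at 24 h, and 69 of 71 lay below 0. At least 2-fold lower were 16 of the 71 (22.5%, against 4.66% of all genes). Their median was 0.30 at 12 h and -0.54 at 36 h, so 24 h was the lowest of a run of lower values. From 12 to 24 h the list changed by a median of 0.73 in the wild type and -0.30 in the mutant. The departure passed downward in 4 of the 71 and upward in none, namely MRPL7 (10.56 in the wild type and 9.12 in the mutant, departure -1.58, adjusted p = 0.0338), RSM10 (11.46 and 10.70, departure -1.15, adjusted p = 0.0364), MRPS9 (10.86 and 10.30, departure -0.96, adjusted p = 0.0364) and MRPL11 (9.65 and 9.10, departure -0.75, adjusted p = 0.034), all subunits of that ribosome. None of these 4 calls held without any single time from 48 to 108 h (adjusted p up to 0.0807), and with median centring those of RSM10 (adjusted p = 0.117) and MRPS9 (adjusted p = 0.061) were lost; that of RSM10 was also lost in the deposited values and with cyclic loess.

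Among 52 translation factors and tRNA synthetases 4 passed downward and none upward. KRS1 (YDR037W), lysyl-tRNA synthetase, stood at 11.73 in the wild type and 9.88 in the mutant at 24 h, against -0.41 to 0.56 at the other times (departure -2.0 ± 0.36, adjusted p = 0.0186). ALA1 (YOR335C), alanyl-tRNA synthetase, stood at 11.90 and 10.92 (departure -1.21, adjusted p = 0.0193; lost with median centring and in the deposited values), and MES1 (YGR264C), methionyl-tRNA synthetase, at 10.73 and 10.27 (departure -0.89, adjusted p = 0.0456; lost without any single time from 48 to 108 h, adjusted p up to 0.091). Also passing was GCD7 (YLR291C), a subunit of the exchange factor of translation initiation, with a difference of -0.70 at 24 h (departure -0.85, adjusted p = 0.0349; adjusted p up to 0.0774 without any single time from 48 to 108 h and 0.0526 with median centring). The 125 ribosome biogenesis genes had a median of -0.22 at 24 h against -0.03 to 0.46 at the other times, with 3 past 2-fold, all lower, and 1 passing, downward, NMD3 (YHR170W), which exports large ribosomal subunits (departure -0.92, adjusted p = 0.0402; lost without any single time from 48 to 108 h, adjusted p up to 0.0812, and with median centring). The 128 cytosolic ribosomal protein genes were higher in the mutant in median, 0.40 at 24 h, within the 0.35 to 0.72 of the other times. In this list 24 genes are read by shared probe sets and are uncertain singly. The sign of its median departure of -0.11 turned with median centring (0.64) and in the deposited values (0.15). Of the 128, RPS24B (YIL069C), whose near-identical copy RPS24A may share its signal, passed, downward: it was level at 24 h, 11.78 in the wild type and 11.72 in the mutant, and higher in the mutant elsewhere, by 0.69 to 1.25 (departure -1.14, adjusted p = 0.0232). That call was lost without 72 h (adjusted p = 0.0576), with median centring and in the deposited values.

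On the higher side, genes of the stress response had a large share past 2-fold. Of 57 genes listed under Msn2, Msn4 and Gis1, 16 (28.1%, against 4.26% of all genes) were at least 2-fold higher in the mutant at 24 h. At least 2-fold lower were 2 (3.51%, against 4.66%). The list median was 0.39 against -0.65 to 0.09 at the other times. Their 24 h difference lay above all other 8 in 38 of 57, against 19.5% of all genes. The departure passed upward in 4 and downward in 2, with a median of 0.71. From 12 to 24 h the list gained a median of 1.06 in the wild type and 2.70 in the mutant, and to 36 h its median moved by 0.05 and -0.20.

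CTT1 (YGR088W), the cytosolic catalase, had the largest upward departure among the genes that passed. It stood at 10.63 in the wild type and 13.00 in the mutant at 24 h, a 5.18-fold difference. At the other times the difference ran from -1.36 to 0.61 with a median of -0.88: the mutant peaked at 24 h, was 11.39 at 36 h and 9.58 at 108 h, while the wild type stayed between 10.77 and 11.07 from 36 h on. The departure was 3.11 ± 0.59 (adjusted p = 0.0224). ALD3 (YMR169C), a stress-induced aldehyde dehydrogenase, stood at 9.13 and 12.30 at 24 h, an 8.98-fold difference, against -0.30 to 1.13 (median 0.14) at the other times (departure 2.93 ± 0.45, adjusted p = 0.0117). It too peaked in the mutant at 24 h and lay between 10.18 and 10.81 there from 36 h on. XBP1 (YIL101C), a repressor raised in stress and starvation, stood at 11.05 and 12.01 (other differences -0.52 to -0.04, departure 1.24 ± 0.20, adjusted p = 0.0129). FMP45 (YDL222C), a membrane protein, stood at 9.71 and 12.35 (other differences 0.07 to 1.62, departure 1.87, adjusted p = 0.0475), a call lost without any single time from 48 to 108 h (adjusted p up to 0.0895).

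The 2 genes of this list that passed downward were SNO1 (YMR095C) and SNZ1 (YMR096W), a neighbouring pair of pyridoxine synthesis raised when growth stops. SNO1 stood at 10.90 in the wild type and 8.45 in the mutant at 24 h, and the other differences ran from -0.35 to 0.52 (median 0.38; departure -2.71 ± 0.31, adjusted p = 0.0033). SNZ1 stood at 12.71 and 10.53, against -1.02 to 0.00 (median -0.31; departure -1.83 ± 0.30, adjusted p = 0.013; lost with median centring, adjusted p = 0.106). SNO1 and SNZ1 reached 10.87 and 12.81 in the mutant at 36 h, where the wild type lay between 10.43 and 10.83 and between 12.81 and 13.28 from 36 h on. In the vitamin synthesis list, which holds both, 4 of 36 genes passed downward and 1 upward, while the median departure was 0.37, or -0.02 in the deposited values. RIB3 (YDR487C) and RIB5 (YBR256C), of riboflavin synthesis, were the others on the lower side. RIB3 stood at 12.01 in the wild type and 11.32 in the mutant (departure -0.91, adjusted p = 0.0402), and RIB5 at 11.83 and 11.15 (departure -0.74, adjusted p = 0.0407). TNA1 (YGR260W), the nicotinic acid permease, passed upward, at 10.82 and 11.46 (departure 1.13, adjusted p = 0.0338). These 3 calls were lost without any of 48, 60, 72 or 108 h (adjusted p up to 0.0872), and those of RIB3 and RIB5 with median centring and in the deposited values as well. BIO4 (YNR057C), of biotin synthesis, stood at 9.40 in the wild type and 11.65 in the mutant at 24 h but at 11.70 and 8.05 at 12 h, so that its departure, 3.34 ± 0.99, did not pass (adjusted p = 0.0948).

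Antioxidant genes followed in part. Of 37, 8 (21.6%, against 4.26% of all genes) were at least 2-fold higher and 2 (5.41%, against 4.66%) at least 2-fold lower in the mutant at 24 h. The departure passed in 4, all upward: CTT1 (above), TSA2, OYE3 and GPX1. TSA2 (YDR453C), a thioredoxin peroxidase, stood at 10.39 in the wild type and 12.29 in the mutant, against -1.41 to 0.69 (median -0.85) at the other times (departure 2.53 ± 0.57, adjusted p = 0.0419). OYE3 (YPL171C), an NADPH oxidoreductase, stood at 10.10 and 11.21, while at every other time the mutant was lower (-1.50 to -0.70, departure 2.36 ± 0.28, adjusted p = 0.00359). GPX1 (YKL026C), a glutathione peroxidase, stood at 11.91 and 12.94, against -0.21 to 0.23 (departure 1.08 ± 0.18, adjusted p = 0.0149). Of 38 heat shock and chaperone genes, 2 (5.26%) were at least 2-fold higher at 24 h and 1 (2.63%) at least 2-fold lower. These shares are near the 4.26% and 4.66% of all genes. HSP31 (YDR533C), a glyoxalase and chaperone, was level at 24 h (12.93 and 13.00) and lower in the mutant at all other times, from -1.82 to -0.85 (departure 1.54 ± 0.32, adjusted p = 0.0347). XDJ1 (YLR090W), a chaperone of the DnaJ family, stood at 9.68 and 8.70, against -0.34 to 0.14 (departure -0.93, adjusted p = 0.0364). The TSA2, HSP31 and XDJ1 calls were lost without any single time from 48 to 108 h (adjusted p up to 0.0808, 0.0661 and 0.0774). No trehalose or glycogen gene passed. Of the 24 in the list, 16 had their most positive difference at 24 h, against 19.5% of all genes. The list median was 0.21 at 24 h and -0.68 to -0.13 at the other times.

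Some genes of glucose uptake and its regulation were also higher in the mutant at 24 h, though their list as a whole did not stand apart. The list median was 0.24 at 24 h, within the -0.31 to 0.33 of the other times, with 16 genes above 0 and 7 below. Of 23 hexose transporter genes and their regulators, 7 (30.4%, against 4.26% of all genes) were at least 2-fold higher and none lower, and 2 passed, both upward. MTH1 (YDR277C), which holds hexose transporter genes repressed when glucose is scarce, stood at 10.35 in the wild type and 12.18 in the mutant, against -0.73 to 0.33 (median -0.30) at the other times (departure 2.08 ± 0.35, adjusted p = 0.0139). Its paralogue STD1 (YOR047C) stood at 8.30 and 9.54, against -0.21 to 0.57 (departure 1.07 ± 0.24, adjusted p = 0.0427). The STD1 call was lost in the deposited values (0.52, adjusted p = 0.22) and without any single time from 48 to 108 h (adjusted p up to 0.0844). The glucose sensors SNF3 and RGT2 and the repressor RGT1, of the same regulation, did not pass, with differences of 0.17, -0.53 and -0.21 at 24 h and departures of -0.56, -0.71 and 0.13. HXT4 (YHR092C), a hexose transporter, stood at 11.59 and 13.25 at 24 h and at 10.11 in the mutant at 36 h, and just missed the threshold (departure 2.27 ± 0.56, adjusted p = 0.0545).

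**Figure D4:**
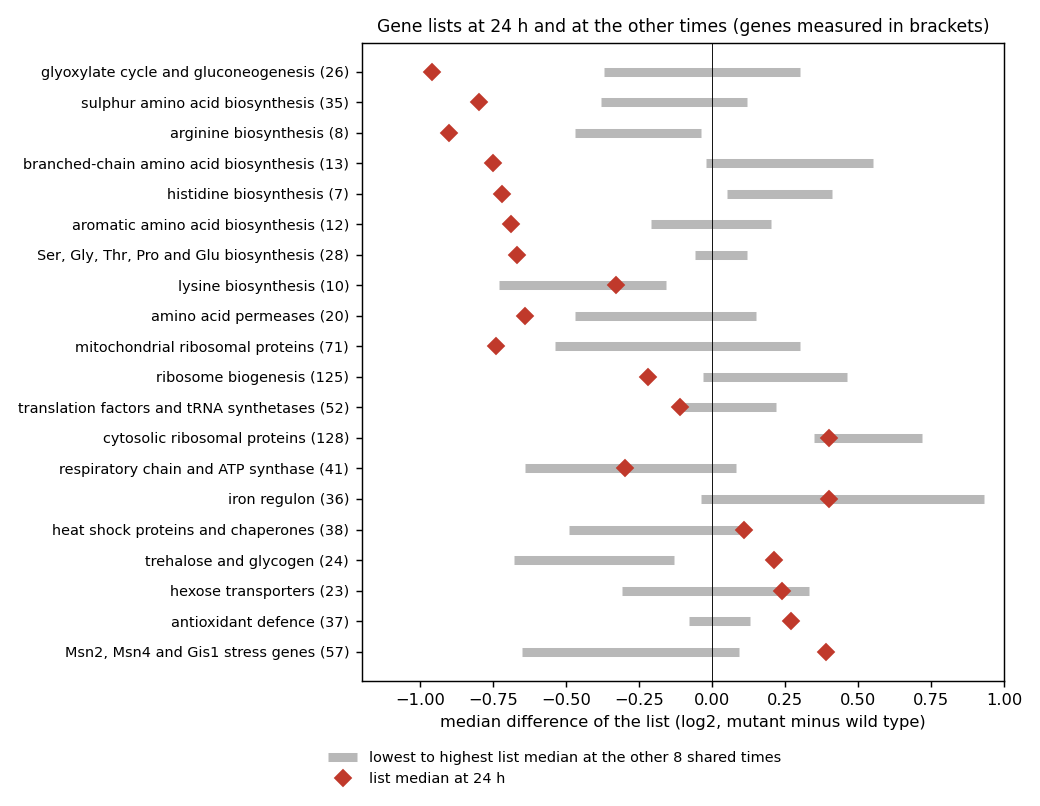
Median difference (log2, mutant minus wild type) of 20 gene lists at 24 h (red diamonds) and the range of their medians at the other 8 shared times (grey bars), with the number of genes measured in brackets. At 24 h the glyoxylate cycle and gluconeogenesis, mitochondrial ribosome and amino acid lists other than lysine lie below their bars. The stress, antioxidant and trehalose lists lie above theirs, and the iron, hexose transporter and cytosolic ribosomal protein lists lie within.

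Other genes among the 15 largest upward departures had varied roles. SRD1 (YCR018C), linked to the processing of ribosomal RNA, stood at 8.27 in the wild type and 9.33 in the mutant at 24 h, while it was lower in the mutant at every other time, from -2.77 to -1.0 (departure 3.06 ± 0.61, adjusted p = 0.0279; lost without 60, 72 or 84 h, adjusted p up to 0.0577). YOR186W, with no known role, stood at 9.12 and 11.73 (departure 3.05, adjusted p = 0.0123), and SDD1 (YEL057C) at 8.71 and 11.26 (departure 2.92, adjusted p = 0.00451). Both peaked in the mutant at 24 h. MPO1 (YGL010W), a dioxygenase of sphingolipid breakdown, stood at 9.64 and 10.71, against -1.81 to -0.69 (departure 2.44, adjusted p = 0.0117). ECM8 (YBR076W) stood at 8.02 and 9.97 (departure 2.41, adjusted p = 0.0027), and YDR248C, a putative gluconokinase, at 9.20 and 10.61 (departure 2.33, adjusted p = 0.00934).

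Several others had calls that leaned on single times, or are read by shared probe sets. HMS1 (YOR032C), a factor linked to filamentous growth, stood at 7.99 in the wild type and 10.38 in the mutant (departure 2.18, adjusted p = 0.0462), and OSW1 (YOR255W), of the spore wall, at 7.59 and 8.17 (departure 1.98, adjusted p = 0.0338). The HMS1 call was lost without any of the times from 60 to 108 h (adjusted p up to 0.0827) and that of OSW1 without any from 48 to 108 h (up to 0.0654). DSF1, a relative of mannitol dehydrogenases, and PAU3, a seripauperin, are read by shared probe sets and are uncertain. DSF1 stood at 10.48 and 11.42 (departure 2.16, adjusted p = 0.013), and PAU3 at 8.64 and 10.10 (departure 1.95, adjusted p = 0.0454; lost without any single time from 48 to 108 h, up to 0.086). URA10 (YMR271C), the minor orotate phosphoribosyltransferase, was nearly level at 24 h, at 12.72 and 12.47, and lower in the mutant elsewhere, from -1.96 to -1.24 (departure 1.38, adjusted p = 0.0224; 0.0505 without 72 h).

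On the lower side, 3 genes of signalling and the cell surface were among the 15 largest departures. PDE2 (YOR360C), the high-affinity cyclic AMP phosphodiesterase, which lowers protein kinase A activity, stood at 11.36 in the wild type and 9.76 in the mutant at 24 h, while its other differences ran from -0.12 to 0.96 with a median of 0.67 (departure -2.16 ± 0.35, adjusted p = 0.013). Of 46 nutrient signalling genes it was the 1 that passed in the test over all 9 times, a share near the 2.07% of all genes that passed downward. SKS1 (YPL026C), a kinase of the response to low glucose, stood at 12.31 and 10.78, against -0.24 to 1.30 (departure -2.21, adjusted p = 0.0364). FLO11 (YIR019C), a flocculin of the cell surface, stood at 12.86 and 11.75, while the mutant was higher at all other times, by 0.03 to 1.65 (departure -2.29, adjusted p = 0.0442). The SKS1 and FLO11 calls were lost without any single time from 48 to 108 h (adjusted p up to 0.0688 and 0.0808), and that of SKS1 also with median centring (adjusted p = 0.066) and in the deposited values (adjusted p = 0.0525).

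Many of the largest differences at 24 h did not pass the test against the other times, where the strains also differed in the same direction from 36 h on or varied widely. YDL218W, a gene of unknown function, had the largest difference of all, 7.49 in the wild type and 12.76 in the mutant, or 38.6-fold. It was 0.35 at 12 h, and the mutant held between 11.21 and 12.98 from 36 to 108 h while the wild type stayed between 7.44 and 7.71. Its departure of 1.25 did not pass (adjusted p = 0.638). Nor did the departures of the next genes pass, namely PMA2 (a plasma membrane proton pump, 8.68 and 12.57, 14.7-fold), PDC6 (a minor pyruvate decarboxylase, 8.90 and 12.78, 14.7-fold), SPS100 (a spore wall protein, 8.96 and 13.23, 19.3-fold), GRE1 (a stress-induced hydrophilic protein, 10.23 and 13.96, 13.3-fold) and HBT1 (linked to cell shape in mating, 9.10 and 12.79, 12.9-fold). These departures lay between 0.78 and 1.97, with adjusted p between 0.268 and 0.752. In each the 12 h difference lay between -0.62 and 0.19, and the mutant at 24 h lay within or above the range of its own later levels. SHH4 (a relative of a succinate dehydrogenase subunit, 7.12-fold), RTN2 (a reticulon, 7.03-fold) and TKL2 (a minor transketolase, 6.42-fold) were also among the 12 most raised at 24 h and did not pass (adjusted p 0.26 to 0.33).

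On the lower side CWP1 (YKL096W), a cell wall mannoprotein, stood at 11.64 in the wild type and 8.44 in the mutant at 24 h, a 9.14-fold difference, and was lower in the mutant at all other times too, with differences from -3.14 to -1.57 (departure -0.55, adjusted p = 0.561). YKL068W-A, of unknown function, stood at 11.61 and 8.05 (departure -2.31, adjusted p = 0.195), and BSC1 (YDL037C) at 10.20 and 6.86, with other differences from -1.46 to 1.36 (departure -3.56 ± 0.92, adjusted p = 0.0652). The departure of BSC1 was as large as that of ICL1, and its spread over the other times was wider.

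Iron genes were among those that built up. The iron regulon, raised by the factors Aft1 and Aft2 when iron is short, had 9 of 36 genes at least 2-fold higher and 2 at least 2-fold lower at 24 h. Its median was 0.40, within the -0.04 to 0.93 of the other times. The low end of that range, -0.04, was the median at 12 h, and at 36 h it was 0.75. Over the list the median departure was -0.27, against -0.02 over all genes. TIS11 (YLR136C), which destabilises messages of iron-using proteins, stood at 8.36 in the wild type and 11.63 in the mutant at 24 h, a difference of 3.27, against -0.88 to 3.70 (median 3.13; departure 0.55, adjusted p = 0.839). FET3 (the ferroxidase of iron uptake) stood at 9.51 and 11.70 (departure 0.30, adjusted p = 0.73), FIT2 (a cell wall protein that retains iron carriers) at 10.91 and 13.02 (departure -0.08, adjusted p = 0.969) and HMX1 (haem oxygenase) at 9.38 and 11.53 (departure 1.37, adjusted p = 0.269). ISU1 (YPL135W), the scaffold on which iron-sulphur clusters are built, was the gene that passed in the test over all 9 times. It stood at 13.68 in the wild type and 12.39 in the mutant against -0.33 to 0.41 (departure -1.32, adjusted p = 0.0364). That call was lost with median centring, where the sign turned (0.06), in the deposited values, and without any of the times from 60 to 108 h (adjusted p up to 0.0774). With 12 h left out, 11 of the 36 passed downward, against 7.07% of all genes, and none upward.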

How the data were processed

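RNA levels were read from the table of values that the authors deposited, probe set summaries that their size, 5.76 to 15.02, places on a log2 scale; the sources used here do not give the software, the background correction or the normalization. In every mutant column at least 94.0% of the values share their last 2 digits at decimal place 9, while wild type columns reach 0.0688%. The strains' columns thus differ in the format of their numbers, for a reason the sources used here do not give. Whether the values were also processed differently is not known. Any such difference would be part of every strain difference. Column medians ran from 9.44 to 10.05 (10.02 in the wild type and 9.83 in the mutant at 24 h), so the values were quantile-normalized over 5449 genes. Of 5814 probe sets, 51 were controls and 265 had no gene name. The rest were matched to the reference annotation R64 by gene identifier, and the probe set with the highest mean was kept per gene; 115 genes are read by probe sets shared between genes. No level is compared between genes.

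The 24 h difference is 1 array against 1, so it has no test and is counted past 2-fold. The departure of 24 h was fitted with limma 3.58.1 in R 4.3.3 (lmFit and eBayes, an indicator of 24 h on the 9 time-matched differences, 7 residual degrees of freedom), and each strain alone likewise, with Benjamini-Hochberg adjustment. On simulated data for this comparison (5449 genes), 45% of departures of 1 and 91% of departures of 2 were found, with 9 false calls. In the simulation the noise was independent between genes and times, around a flat mean. The real differences changed with the time of culture, and genes on an array share its scaling. The shares found and the false calls are therefore not rates for these data. The number of arrays limits the precision. No sequences were printed.

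Alternatives tried: no further scaling, median centring, cyclic loess, the mean of all probe sets, leaving out dim genes, other folds and thresholds, an intensity trend with a robust prior, other partners for the mutant array, and leaving out times. The genes named are SCH9, URA3, the 12 largest 24 h differences and the 15 largest departures in each direction, and per list up to 4 passing and 3 most different genes in each direction, beside 4 (FBP1, JEN1, PCK1, MET13) chosen after their values were seen. SNF3, named beside the other glucose regulators, also lies outside this rule. The comparison and the 45 gene lists were chosen with earlier results of these data known.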

Additional observations from a re-analysis of the deposited data

Results flagged for a closer look

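The 24 h strain difference departed from that at the other 8 shared times in 186 genes, by a test of the difference itself in limma. Every named gene below is flagged for that reason, with its departure (log2).

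Among genes of carbon use and transport the departures were -3.57 for ICL1, -3.30 for YAT2, -3.25 for SFC1, -2.52 for SIP4, -1.94 for FBP1, -1.21 for JEN1, -1.13 for PCK1, -2.69 for AGP2, -1.68 for CIT3, -2.86 for STL1 and -1.97 for DLD3. Among genes of amino acid synthesis and uptake they were -2.43 for HOM3, -2.15 for MET2, -2.46 for SAM1, -2.63 for MMP1, -1.47 for MET13, -2.18 for TRP4, -1.01 for ARO1, -1.27 for ARO4, -0.86 for TRP3, -1.45 for ARG3, -1.17 for ARG7, -1.0 for CPA1, -0.91 for ARG2, -1.36 for HIS1, -0.91 for HIS6, -1.40 for GLY1, -1.23 for SER1, -0.95 for PRO1 and 1.10 for LYS4. Among genes of protein synthesis they were -2.0 for KRS1, -1.21 for ALA1, -0.89 for MES1, -1.58 for MRPL7, -1.15 for RSM10, -0.96 for MRPS9, -0.75 for MRPL11, -0.85 for GCD7, -0.92 for NMD3 and -1.14 for RPS24B.

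Stress and antioxidant genes departed by 3.11 for CTT1, 2.93 for ALD3, 2.53 for TSA2, 2.36 for OYE3, 1.08 for GPX1, 1.54 for HSP31, -0.93 for XDJ1, 1.24 for XBP1 and 1.87 for FMP45, and the pyridoxine pair by -2.71 for SNO1 and -1.83 for SNZ1. Glucose regulators departed by 2.08 for MTH1 and 1.07 for STD1. The others were 3.06 for SRD1, 3.05 for YOR186W, 2.92 for SDD1, 2.44 for MPO1, 2.41 for ECM8, 2.33 for YDR248C, 2.18 for HMS1, 2.16 for DSF1, 1.98 for OSW1, 1.95 for PAU3, 1.38 for URA10, -2.16 for PDE2, -2.21 for SKS1, -2.29 for FLO11, -1.32 for ISU1, -0.91 for RIB3, -0.74 for RIB5, 1.13 for TNA1, -1.22 for ALD6, -2.01 for ATG41, -1.23 for ZRT2, -1.24 for PHO90, 1.19 for GPD2, 1.17 for CLN1, 1.14 for PCL9 and 1.29 for ERG28.

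Data outside the comparisons were counted as well. Of the 265 probe sets without a gene name, 30 were past 2-fold between the strains at 24 h, after centring on the median difference. Of these, 16 were higher and 14 lower in the mutant. At the other times 10 to 40 were past 2-fold, so 24 h lay within their range. Among the 5449 named genes, 4.26% were at least 2-fold higher at 24 h and 4.66% at least 2-fold lower.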

How the results depend on the processing

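Genes past 2-fold at 24 h numbered 486; there were 1429 past 1.5-fold, 69 past 4-fold, and 1419 past 2-fold when the mutant array was set against the wild type of 12 h instead, while in the deposited values the count was 598 and the split moved from 47.7% to 28.6% higher. Genes whose 24 h difference departed numbered 186 (39.2% upward), against 763 in the deposited values (18.9% upward), 483 with median centring (78.5% upward), 6 with the times from 12 to 72 h alone, 18 at an adjusted p under 0.01, and 71 to 790 with 1 time left out; the highest is without 12 h, which is the same fit as that on 36 h and later (790), and without 36 h it was 400. The median departure of all genes was -0.39 in the deposited values, 0.11 with median centring and 0.01 with cyclic loess, against -0.02. For the wild type alone the count of 0 became 508 from 36 h on, and 0 to 508 with 1 time left out. For the mutant alone the count of 1 became 67 in the deposited values, 100 with median centring, 49 with cyclic loess, 790 from 36 h on, 0 from 12 to 72 h, 4 with the trend and robust prior and 0 at an adjusted p under 0.01, and ran from 0 to 790 with 1 time left out. Of the 79 named genes that passed, 48 passed under all 3 other scalings, 38 with each time left out and 6 with 12 to 72 h alone; with median centring PCK1 (0.10), CPA1 (0.22), ISU1 (0.06) and ALD6 (0.13) changed sign. The median departures of the glyoxylate cycle and gluconeogenesis, amino acid (other than lysine), mitochondrial ribosome, stress, antioxidant, trehalose and hexose transporter lists kept their sign under every alternative; that of the lysine list turned with median centring (0.09). Raw signals over background were not used, so the dim end of the scale is limited only by the test without dim genes.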

Other observations

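Genes of lists not described above also departed at 24 h. ATG41 (YPL250C), an autophagy gene under the zinc factor Zap1, stood at 12.93 in the wild type and 10.03 in the mutant at 24 h, and was lower in the mutant at all other times, from -1.84 to -0.61 (departure -2.01 ± 0.38, adjusted p = 0.0224; 0.0514 without 72 h). ZRT2 (YLR130C), the low-affinity zinc transporter, stood at 11.49 and 10.49, while its other differences ran from 0.02 to 0.49 (departure -1.23 ± 0.20, adjusted p = 0.013; lost with median centring, adjusted p = 0.146). They were 2 of 13 zinc regulon genes, and none of the 13 passed upward. PHO90 (YJL198W), a low-affinity phosphate transporter, was the 1 of 31 phosphate regulon genes to pass, at 10.33 and 9.83 (departure -1.24, adjusted p = 0.0338; lost without any of 48, 60, 72, 96 or 108 h, up to 0.0722). ALD6 (YPL061W), the cytosolic aldehyde dehydrogenase that makes acetate, stood at 13.52 and 12.66, while the mutant was higher at all other times, by 0.13 to 0.59 (departure -1.22 ± 0.20, adjusted p = 0.013). With median centring ALD6 had the opposite sign (0.13), and in the deposited values the call was lost.

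On the higher side, GPD2 (YOL059W), a glycerol phosphate dehydrogenase, stood at 8.25 in the wild type and 8.64 in the mutant at 24 h, and was lower in the mutant elsewhere, from -1.23 to -0.50 (departure 1.19, adjusted p = 0.0364). CLN1 (YMR199W), a G1 cyclin, stood at 7.86 and 8.10, against -1.14 to -0.55 (departure 1.17, adjusted p = 0.0224), and PCL9 (YDL179W), a cyclin of the Pho85 kinase, at 8.78 and 9.17, against -0.95 to -0.39 (departure 1.14, adjusted p = 0.0224). In all 3 the wild type at 24 h lay below its own levels from 36 to 108 h. ERG28 (YER044C), a scaffold of ergosterol synthesis, stood at 10.45 and 12.04, against -0.03 to 0.66 (departure 1.29, adjusted p = 0.0435). The CLN1 and PCL9 calls were lost without 72 h (adjusted p = 0.0521 and 0.0501), those of GPD2 and ERG28 without any of 72, 84, 96 or 108 h (up to 0.0774 and 0.0807) and at another time each, and those of GPD2, CLN1 and PCL9 in the deposited values.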
